A study of Sus scrofa with 6 samples.

Results

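Lactate is made from pyruvate by lactate dehydrogenase and crosses the plasma membrane through monocarboxylate transporters of the SLC16 family. The genes described here are SLC16A1, SLC16A3, SLC16A7 and SLC16A13 of that family, BSG and EMB, which encode the accessory proteins of these transporters, and LDHA and LDHB, which encode the subunits of lactate dehydrogenase. Every probe set of the array whose annotation gives one of these symbols and no other was taken, which gave 7 probe sets for 6 of the 8 genes, out of 23999 probe sets and 6765 named genes. SLC16A1 and SLC16A7 were not analysed here, because no probe set carries either symbol. The set was built around SLC16A3, which was chosen by its CPB against Sham difference on these same arrays, so differences between the groups are given for the 7 probe sets as a description without a test.

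Renal medulla came from 3 pigs given 2.5 hours of cardiopulmonary bypass under general anaesthesia (CPB) and from 3 pigs given only the anaesthesia for 2.5 hours (Sham). All were adult female White-Landrace crossbred animals (Large White-Landrace in the study's methods), and both groups had the neck dissection and systemic heparin. Tissue was taken 24 hours after the intervention, and every animal has 1 Affymetrix porcine array, which makes n = 3 animals in either group. The labels name the tissue renal medulla, and the study's methods describe cutting the kidney into cortical and outer medullary blocks. Values are RMA intensities, which the authors made by correcting the background, equalising the arrays and summarising the probes of each probe set. Intensities of different probe sets are not on a common scale, so genes are compared by how they differ between arrays and not by their level.

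In the renal medulla oxygen tension is low and the collecting duct makes much of its ATP by glycolysis, which ends in lactate. The proximal tubule, which lies mostly in the cortex and in the outer stripe of the outer medulla, takes up lactate and turns it into glucose. SLC16A3, also called MCT4, is known mainly for lactate export from glycolytic cells, whereas SLC16A1 and SLC16A7, MCT1 and MCT2, also serve its uptake. A lactate dehydrogenase tetramer rich in the LDHA subunit is typical of glycolytic tissue, and one rich in LDHB of oxidative tissue.

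Markers of cell types differed widely between animals within both groups. The mean log2 intensity of the 11 measured proximal tubule markers, of 20 listed, after centring every gene on its mean of the 6 arrays, was 1.26, -1.58 and 1.58 in CPB 1, CPB 2 and CPB 3, and -2.27, 1.22 and -0.21 in Sham 1, Sham 2 and Sham 3. Their defining endocytic receptor LRP2 had intensities of 2469, 169 and 2740 in the CPB animals and 181, 2390 and 899 in the Sham animals, while SLC34A1, the other defining marker, has no named probe set. The mean of the 5 measured urothelium markers of 10 ran the other way. It was -0.82, 0.67 and -0.88 in CPB and 0.46, -0.95 and 1.53 in Sham. The defining uroplakin UPK3A had intensities of 55.4, 837 and 56.6 in CPB and 415, 61.6 and 528 in Sham. UPK2, the other defining marker, varied much less, at 64.2, 71.5 and 58.4 in CPB and 63.7, 64.0 and 86.0 in Sham. UPK1B and KRT19 were, like UPK3A, highest in CPB 2, Sham 1 and Sham 3, whereas UPK1A was lowest in CPB 2, at 30.3. Of the defining markers of medullary segments, UMOD, SLC12A1 and AQP2 were not analysed here. Over all probe sets, CPB 1 and Sham 2 were each other's closest array (Pearson r = 0.990), and so were CPB 2 and Sham 1 (r = 0.980). CPB 2 and Sham 2 thus stood apart from the rest of their groups, and results are given with and without them where they change. Without both, the CPB animals left all lie above the Sham animals left in proximal tubule mean. Group and tubule markers cannot be told apart on those arrays.

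The transcript of SLC16A3, whose protein exports lactate together with a proton, was higher in CPB than in Sham medulla on every array. Its intensity was 153, 178 and 223 in CPB 1, CPB 2 and CPB 3, against 80.8, 114 and 59.9 in Sham 1, Sham 2 and Sham 3. The groups did not overlap, and the lowest CPB animal lay above the highest Sham animal. The mean was 185 ± 35.6 (SD, n = 3) in CPB and 84.8 ± 27.2 (SD, n = 3) in Sham, a log2 difference of 1.153 (standard error 0.27), or 2.22-fold. The difference lay between 0.93, without Sham 3, and 1.39, without Sham 2, when each array was left out in turn, and it was 1.41 without both CPB 2 and Sham 2. The study reported that real-time PCR of SLC16A3 correlated with its arrays, and that Western blots showed no significant change of the protein.

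SLC16A13, or MCT13, a family member whose transport role is less well established, did not separate the groups. It had intensities of 234, 244 and 121 in the CPB animals and 190, 150 and 136 in the Sham animals. CPB 3 was the lowest of all 6 arrays and CPB 2 the highest, so the CPB group spanned the whole Sham range. The log2 difference was 0.28 (standard error 0.30), and it was 0.60 without CPB 3 and 0.10 without CPB 2.

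**Figure D1:**
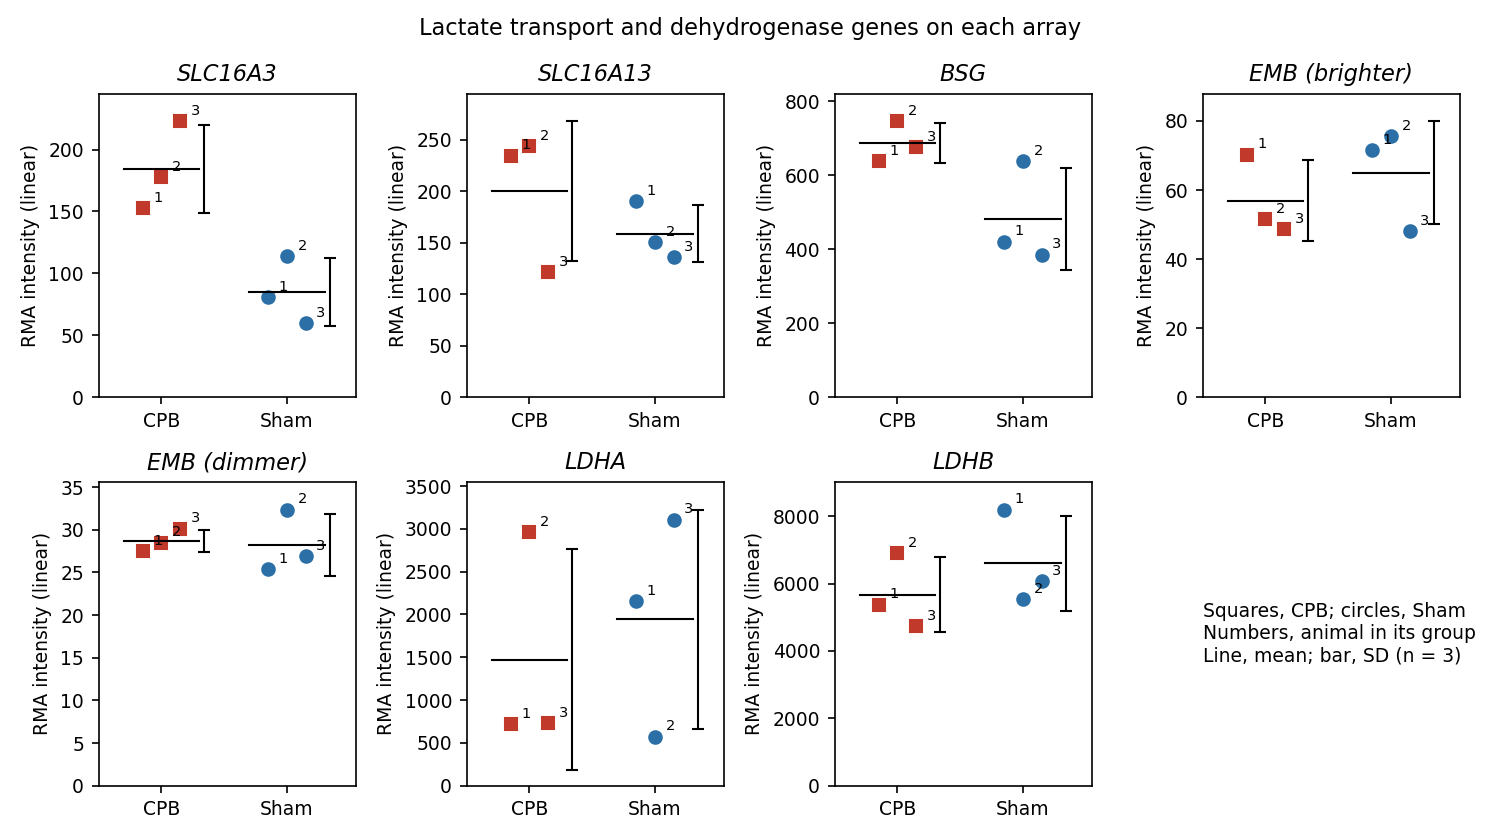
RMA intensity (linear scale, from 0) of the 7 probe sets on each array, with CPB animals as squares and Sham animals as circles, numbered within their group; lines are means and bars SD (n = 3). The CPB squares of SLC16A3 lie at 153 to 223, above the Sham circles at 59.9 to 114, whereas LDHA is high in CPB 2, Sham 1 and Sham 3 and low in the other animals.

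BSG, or basigin, is the immunoglobulin-like protein that carries SLC16A1 and SLC16A3 to the plasma membrane. Its intensity was 639.5, 746.7 and 676.2 in the CPB animals and 421.1, 638.7 and 385.5 in the Sham animals. The groups did not overlap, but the gap was narrow, since CPB 1 at 639.5 and Sham 2 at 638.7 were almost equal. The means were 687 ± 54.5 (SD, n = 3) in CPB and 482 ± 137 (SD, n = 3) in Sham, a log2 difference of 0.55 (standard error 0.21), or 1.46-fold. The difference was 0.77 without Sham 2 and 0.40 without Sham 3.

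EMB, or embigin, is the partner of SLC16A7 and is related to basigin. Its brighter probe set had intensities of 70.3, 51.7 and 48.8 in CPB and 71.5, 75.7 and 48.02 in Sham, and its dimmer one 27.5, 28.5 and 30.1 in CPB and 25.4, 32.4 and 26.9 in Sham. The groups overlapped on both, with log2 differences of -0.18 (standard error 0.23) and 0.03 (standard error 0.13). The dimmer probe set lay among the lowest 25% of intensities on all 6 arrays. Across the arrays the probe sets hardly followed each other (Pearson r = 0.059, n = 6 arrays), so EMB has no settled pattern here.

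The LDHA subunit of lactate dehydrogenase varied most, and not by group. Its intensity was 719, 2962 and 729.8 in CPB 1, CPB 2 and CPB 3, and 2153, 572 and 3107 in Sham 1, Sham 2 and Sham 3. CPB 2, Sham 1 and Sham 3 were high, CPB 1, CPB 3 and Sham 2 were low, and no array lay between 729.8 and 2153. The mean was 1470.5 ± 1292 (SD, n = 3) in CPB and 1944 ± 1280.4 (SD, n = 3) in Sham, with a log2 difference of -0.43 (standard error 0.82). Its spread between animals of a group, an SD of 1.23 on the log2 scale, was wider than that of 98.04% of all probe sets, whose median was 0.22. The difference rested on single arrays: it was 0.06 without Sham 3, -1.16 without Sham 2, -1.11 without CPB 2 and -1.84 without both CPB 2 and Sham 2.

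The LDHB subunit varied much less. It had intensities of 5375, 6894 and 4734 in the CPB animals and 8197, 5529 and 6071 in the Sham animals. The groups overlapped, and the log2 difference was -0.22 (standard error 0.21), with an SD within groups of 0.29. The difference lay between -0.37, without CPB 2, and -0.05, without Sham 1, when each array was left out in turn. RefSeq lists 2 pig genes under the symbol LDHB in its Sscrofa11.1 annotation, and the array annotation assigns the probe set to 1 of them. Whether it also detects the other was not tested.

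The ratio of the subunit transcripts also differed between animals. The log2 ratio of LDHA over LDHB, centred over the 6 arrays, was -0.74, 0.95 and -0.53 in CPB 1, CPB 2 and CPB 3, and 0.24, -1.11 and 1.198 in Sham 1, Sham 2 and Sham 3. It lay above 0 in 1 CPB and 2 Sham animals, the same 3 arrays in which LDHA was high.

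In the closest array pairs, SLC16A3 was at 153 in CPB 1 against 114 in Sham 2 (1.34-fold). In the other pair it was at 178 in CPB 2 against 80.8 in Sham 1 (2.2-fold). Any pair would have had the CPB animal higher for SLC16A3 and BSG, since their groups did not overlap. BSG was level in the first of these pairs, with a ratio of 1.001 for CPB 1 over Sham 2, and 1.77-fold higher in CPB 2 than in Sham 1. SLC16A13 was 1.56-fold higher in CPB 1 than in Sham 2 and 1.28-fold higher in CPB 2 than in Sham 1. LDHA was higher in the CPB animal of both pairs, 1.26-fold in CPB 1 over Sham 2 and 1.38-fold in CPB 2 over Sham 1, whereas its group difference was -0.43. LDHB had ratios of 0.97 and 0.84 in the same pairs, CPB over Sham. The brighter EMB probe set had ratios of 0.93 and 0.72 and the dimmer one 0.85 and 1.12. Each pair is 1 animal of each group, so these ratios have no replicate error.

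**Figure D2:**
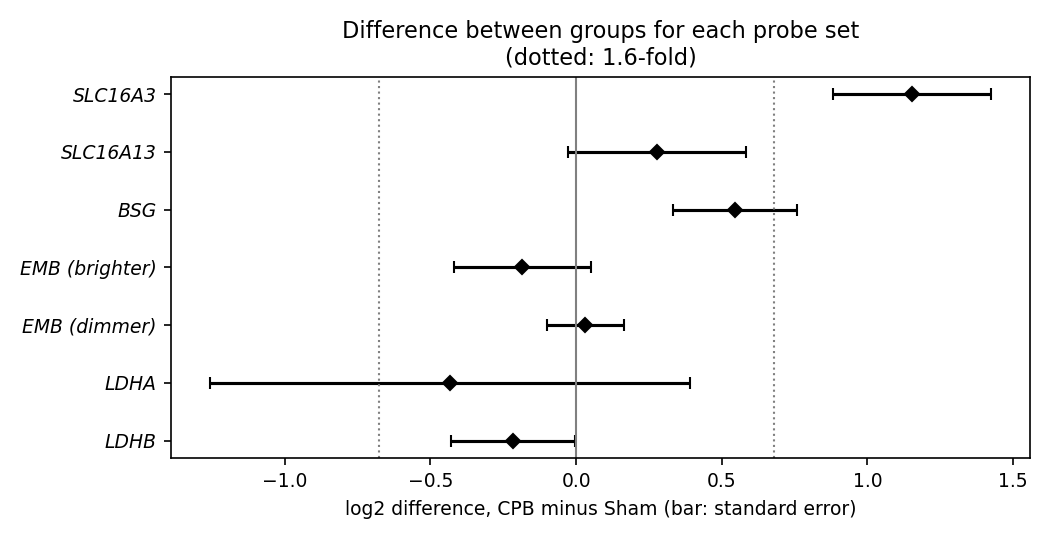
Log2 difference in RMA intensity, CPB minus Sham, of the 7 probe sets, with the standard error from limma (n = 3 animals per group); dotted lines mark 1.6-fold. SLC16A3, at 1.153, is beyond the dotted line, BSG, at 0.55, is inside it, and LDHA, at -0.43, has the widest bar, 0.82.

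The study called a gene at 1.6-fold or more with an unadjusted p under 0.05. By limma, 1 of the 7 probe sets met this threshold, SLC16A3, beside 0.304% of all 23999 probe sets and 0.0875% that met it with the higher mean in CPB. BSG, at 1.46-fold, was the nearest outside it. The groups did not overlap for 2 of the 7, SLC16A3 and BSG, beside 5.27% of all probe sets and 3.38% with CPB the higher. These shares are given as background only, since the set was chosen on this comparison. No probe set of the array passed limma's adjusted p of 0.05 (smallest adjusted p = 0.995), and 336 (1.4%) had an unadjusted p under 0.05. BSG met the study's threshold without Sham 2 and without both CPB 2 and Sham 2, and LDHA met it with array weights and without both CPB 2 and Sham 2, when 3070 probe sets in all did. The same rule called 701 probe sets without Sham 2 and 693 without CPB 2.

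LDHA was high on the arrays with low proximal tubule markers. These 3 arrays had the lowest proximal tubule means and the highest urothelium means. Smooth muscle markers, 5 of 8 measured, had means of -0.67, 0.70 and -0.44 in CPB and 0.59, -0.46 and 0.28 in Sham, and were also highest on those 3 arrays. So were endothelium markers, 8 of 10 measured, with means of -0.24, 0.41 and -0.47 in CPB and 0.41, -0.16 and 0.05 in Sham. Both lists were mixed. PECAM1, CDH5, TEK and TIE1 of endothelium and ACTA2, TAGLN and CNN1 of smooth muscle were highest on those 3 arrays. The endothelial KDR was lowest there, at 44.7 in CPB 2, 45.3 in Sham 1 and 47.2 in Sham 3. ENG and MYL9 were lowest in Sham 3, at 123 and 370. VWF, EGFL7 and DES followed neither pattern. Thick ascending limb markers, 3 of 8 measured, were not highest on those 3 arrays. Their means were 0.006, -0.08 and -0.21 in CPB and 0.64, 0.05 and -0.40 in Sham. The collecting duct markers, 6 of 11 measured, had means of -0.29, 0.68 and -0.46 in CPB and 0.12, -0.15 and 0.10 in Sham, and went both ways. The water channel AQP3 had intensities of 1080, 5437 and 1280.4 in CPB and 4831, 1048 and 2590 in Sham, highest on those 3 arrays. The sodium channel subunit SCNN1B had 174, 118 and 165 in CPB and 107, 187 and 98.2 in Sham, lowest on those 3 arrays. Their part in the LDHA values was not tested, and in bulk tissue fewer cells of a type and less RNA per cell cannot be told apart.

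SLC16A3 and BSG did not follow these markers in the same way. CPB 2, where the proximal tubule mean was -1.58, and CPB 3, where it was 1.58, both had more SLC16A3 than every Sham animal. This follows from the lack of overlap between the groups for SLC16A3. Within the Sham group, however, SLC16A3 and BSG were both highest in Sham 2, the Sham animal with the highest proximal tubule mean. The myeloid markers, 7 of 12 measured, had list means between -0.07 and 0.06 in CPB and between -0.02 and 0.01 in Sham, and the erythrocyte markers, 3 of 6 measured, between -0.10 and 0.04 in CPB and between -0.16 and 0.12 in Sham. The myeloid markers ITGAM, S100A8, S100A9 and S100A12 lay among the lowest 25% of intensities on all 6 arrays. The flat myeloid mean thus rests in part on dim probe sets. Single myeloid markers went both ways, with log2 differences of -0.47 for CD163, -0.31 for TYROBP, 0.15 for CD14 and 0.30 for ITGAM. ITGAM, an integrin of myeloid cells, had intensities of 33.0, 31.6 and 31.6 in CPB and 23.5, 29.4 and 25.5 in Sham, and like SLC16A3 and BSG it did not overlap between the groups and was highest among Sham animals in Sham 2. The part of these cell types in the SLC16A3 and BSG values was not tested.

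**Figure D3:**
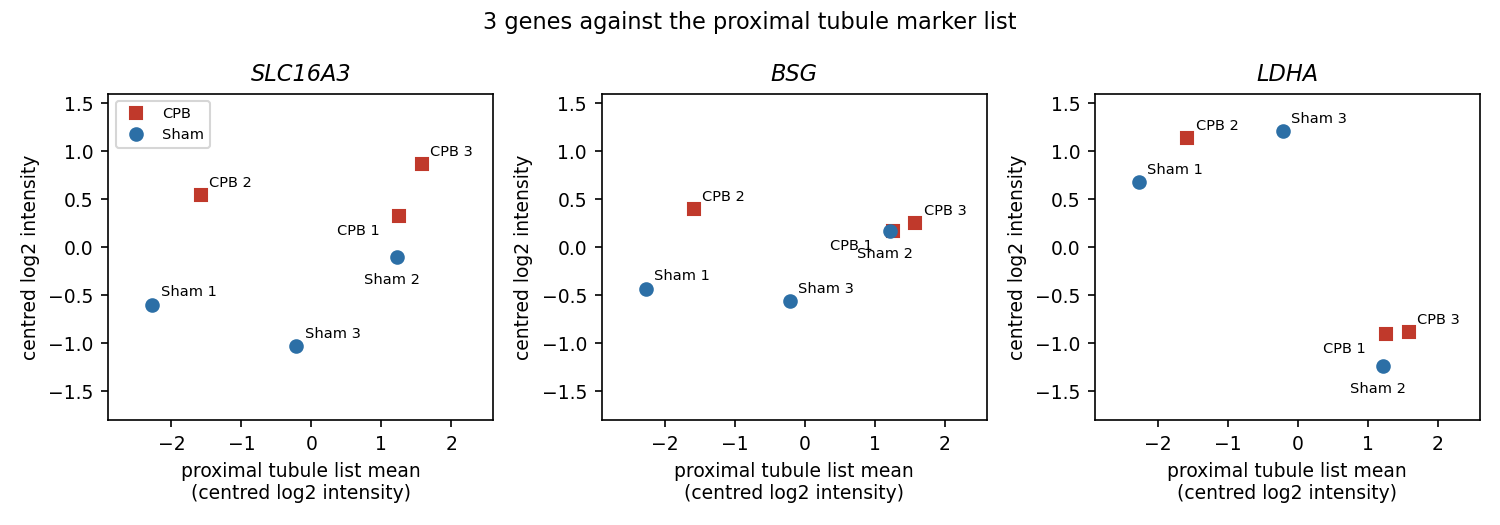
Log2 intensity of SLC16A3, BSG and LDHA against the mean of 11 proximal tubule markers, each centred over the 6 arrays; squares are CPB and circles Sham animals. CPB 2 and CPB 3 lie at -1.58 and 1.58 on the x axis. Both have high SLC16A3, which follows from the lack of overlap between the groups. LDHA is low on all 3 arrays with a proximal tubule mean above 1.

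The other genes of lactate and pyruvate metabolism showed no called difference. Of 86 listed genes 49 were measured, and 0 met the study's threshold or an unadjusted p under 0.05 with limma, with 0 at the threshold by the methods' t-test. Their median log2 difference was 0.11, with 35 of 49 higher in mean in CPB, beside 0.03 and 55.9% over all probe sets. Without both CPB 2 and Sham 2 the threshold was met by 18 of the 49 (36.7%), beside 12.8% of all probe sets. Of the 18, 12 were higher in CPB. The arrays left had proximal tubule means of 1.26 and 1.58 in CPB and -2.27 and -0.21 in Sham. Group and tubule markers cannot be told apart there. Without Sham 2 the threshold was met by 2 (4.08%), beside 2.92% of all probe sets, and without CPB 2 by 4 (8.16%), beside 2.89%.

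The 12 other monocarboxylate transporters listed, among them the sodium-coupled SLC5A8 and SLC5A12, were not analysed here because no probe set carries their symbols. LDHD, the mitochondrial dehydrogenase of D-lactate, had intensities of 606, 467 and 496 in CPB and 391.9, 589.9 and 311 in Sham on its brighter probe set, a log2 difference of 0.32 (standard error 0.26). Its groups overlapped through Sham 2. The testis form LDHC was dim on every array, between 12.9 and 15.8 in CPB and between 15.6 and 16.1 in Sham.

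Enzymes that turn lactate into glucose varied between animals in the opposite sense to LDHA. The mean of all 7 measured gluconeogenesis genes was higher in CPB (median log2 difference 0.84), but the groups overlapped for every one. FBP1, fructose bisphosphatase, had intensities of 7300.4, 507 and 8212 in CPB and 310.2, 6336 and 2689 in Sham, so it was lowest in Sham 1 and CPB 2, where LDHA was high. PC, which makes oxaloacetate from pyruvate, had intensities of 2265, 1050.2 and 1637 in CPB and 469, 1596 and 665 in Sham, a log2 difference of 0.99 (standard error 0.51). The glucose 6-phosphate transporter SLC37A4 differed by 1.16 (standard error 0.77) and the glucose transporter SLC2A2 by 0.72 (standard error 0.78). FBP1 and PCK1, which makes phosphoenolpyruvate, also stand in the proximal tubule list, and the 9 other markers of that list had means of 1.24, -1.55 and 1.61 in CPB and -2.296, 1.23 and -0.24 in Sham.

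Glycolysis moved less. The mean was higher in CPB for 13 of 18 measured genes, and their median log2 difference was 0.04. The isomerase GPI had intensities of 1889, 2873 and 1829 in CPB and 1991, 1414 and 1455 in Sham (log2 difference 0.43, standard error 0.23), and TPI1, triosephosphate isomerase, had 1075, 1469 and 1233 in CPB and 1168, 956 and 888 in Sham (log2 difference 0.32, standard error 0.17). For both genes only Sham 1 lay inside the CPB range. PGAM2, the muscle form of phosphoglycerate mutase, differed by 0.39 (standard error 0.19) with overlapping groups.

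GAPDH, often used as a control gene, showed both patterns on different probe sets. Its brightest had intensities of 8870, 10560 and 9078 in CPB and 8778, 7734 and 8465 in Sham, with no overlap and a log2 difference of 0.19 (standard error 0.12). Another GAPDH probe set had 574, 2585 and 447 in CPB and 1688, 412 and 1467 in Sham, with the same high and low arrays as LDHA. For ACTB, another control gene, the brighter probe set had a log2 difference of -0.04 (standard error 0.22).

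Genes that lead pyruvate into the mitochondrion had a median log2 difference of 0.16, with 11 of 13 higher in mean in CPB. The subunits of the mitochondrial pyruvate carrier, MPC1 and MPC2, differed by 0.37 (standard error 0.33) and 0.25 (standard error 0.24). PDHA1, the catalytic alpha subunit of pyruvate dehydrogenase, had intensities of 2004, 244 and 1488 in CPB and 314, 772 and 601.5 in Sham, with CPB 2 the lowest of all 6 arrays and the other CPB animals the highest.

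Among 9 measured regulators of these genes, 3 had a higher mean in CPB. The MYC antagonist MXI1 differed by -0.44 (standard error 0.23), the hypoxia-inducible factor EPAS1 by -0.35 (standard error 0.18) and PPARA, a regulator of fatty acid oxidation, by 0.48 (standard error 0.29), all with overlapping groups. PPARA had 53.0, 38.0 and 83.8 in CPB and 36.1, 44.4 and 38.7 in Sham. A dimmer PPARA probe set differed by -0.02 (standard error 0.18). HIF1A, the hypoxia-inducible factor that drives LDHA and SLC16A3 in hypoxic cells, was looked at after its values had been seen. On its brightest probe set it had intensities of 1053, 4078 and 1071 in CPB and 4454, 958 and 5301 in Sham, again high in CPB 2, Sham 1 and Sham 3, with a log2 difference of -0.77 (standard error 0.83). All 4 HIF1A probe sets had a lower mean in CPB, with log2 differences between -1.68 and -0.24, and Sham 3 was the highest array on each of them. Only the brightest of them had the high and low arrays of LDHA. On the other HIF1A probe sets CPB 2 lay below CPB 3, at 64.9 against 76.4, 19.0 against 23.3 and 28.5 against 32.8. The HIF1A probe sets at 19.0 and 28.5 in CPB 2 were dim on most arrays.

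**Figure D4:**
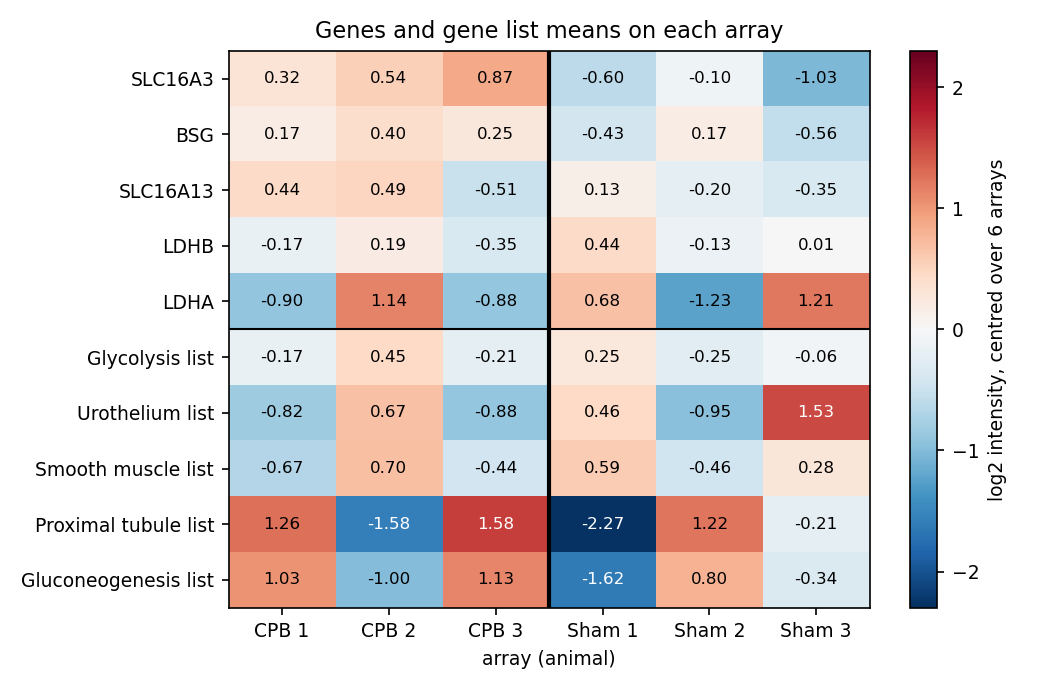
Log2 intensity of 5 genes and mean of 5 gene lists on each array, every probe set centred over the 6 arrays; the vertical line parts CPB from Sham, red is above and blue below the mean of the arrays. SLC16A3 is above 0 in all CPB and below 0 in all Sham animals, while LDHA, at 1.14 in CPB 2 and -1.23 in Sham 2, runs against the gluconeogenesis list, at -1.003 and 0.80 on those arrays.

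The genes with the most similar pattern were sought by Pearson r over the 6 arrays, as a description. SLC16A3 was most like NSDHL, an enzyme of cholesterol synthesis, CDA, cytidine deaminase, and ETNK2, an ethanolamine kinase, with r = 0.992, 0.991 and 0.991. CDA had intensities of 435, 526 and 650.1 in CPB and 314, 389 and 242 in Sham, in the same order of arrays as SLC16A3 but over a narrower range. BSG was most like the myeloid receptor gene TREM1 (r = 0.997), the mitochondrial ubiquitin ligase gene MUL1 (r = 0.997) and the protegrin gene NPG4 (r = 0.990), and TREM1 was dim, at 33.5 to 37.4 in CPB and 25.5 to 34.3 in Sham. SLC16A13 was most like USP7, CPT1A and WASL (r = 0.984, 0.976 and 0.966), and the brighter EMB probe set most like DEUP1, RBP7 and GPC3 (r = 0.989, 0.972 and 0.953).

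LDHA had far more followers than the transporters. At r over 0.95 it was followed by 500 probe sets, more than 92.3% of all probe sets have, against 336 for LDHB, 193 for BSG, 96 for SLC16A3 and 22 for SLC16A13, with a median of 107 over all probe sets. Its closest was the tropomyosin gene TPM3 (r = 0.998), with 1461, 2404 and 1406 in CPB and 2204, 1278 and 2530.04 in Sham, and then MLLT3 and TES (r = 0.996 each). LDHB was most like TDRD3, PTGFRN and FAM114A1 (r = 0.998, 0.996 and 0.995). SLC16A3 and BSG followed each other at r = 0.922 and LDHA and LDHB at r = 0.720 over the 6 arrays.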

How the data were processed

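RNA of renal medulla from 3 CPB and 3 Sham pigs was hybridised to Affymetrix GeneChip Porcine Genome Arrays. The authors applied RMA to the scans in ArrayStar and deposited linear intensity values for 24123 probe sets, whose scale was read from the values. The 124 control probe sets were left out. Log2 intensities of the other 23999 were compared with limma 3.58.1 (lmFit, eBayes) in R 4.3.3, with a group term, p-values were adjusted after Benjamini-Hochberg, and calls at the study's threshold (1.6-fold, unadjusted p under 0.05) came from this model. The test was checked on simulated data with independent noise for each probe set. On the real arrays many probe sets vary together, which that check does not cover. Precision rests on 3 animals per group, for which no two-sided exact permutation p lies below 0.1.

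Symbols came from the array annotation, which gives 1 symbol to 10099 probe sets and several to 198. Genes with several probe sets entered lists through the brightest. Named were every probe set of the 8 genes, the list genes at the threshold, up to 3 per role with the smallest p, the 3 closest genes by Pearson r, marker lists, GAPDH and ACTB. FBP1, PCK1, HIF1A and single markers other than the defining ones were named outside this rule, with their values known. The genes and lists were chosen with earlier results of these data known. Alternatives were the methods' t-test, a trended robust prior, array weights, median centring, quantile normalization repeated, dim and control probe sets, a pseudocount of 16, other fold minimums, the replicate block and arrays left out. No genome build was named, so no positions are given.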

Additional observations from a re-analysis of the deposited data

How the results depend on the processing

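SLC16A3 stayed higher in CPB, at the study's threshold, under all 17 alternatives, with log2 differences between 0.93 and 1.41. It was chosen because it met this threshold on these same arrays, so the alternatives describe its dependence on processing and are no further support. BSG lay between 0.40 and 0.77, SLC16A13 between 0.07 and 0.60, and LDHB between -0.48 and -0.05. LDHA changed sign under 1 alternative (0.06, without Sham 3) and moved by more than the spread between animals under 1 (-1.84, without both CPB 2 and Sham 2). The brighter EMB probe set changed sign with array weights (0.14) and the dimmer one without Sham 1 and without CPB 3 (-0.04 and -0.003), so EMB has no direction. Of all 23999 probe sets, 73 met the study's threshold, 28.8% of them higher. The methods' t-test gave 30 on log2 and 26 on linear values, a pseudocount of 16 gave 48 and a fold minimum of 2 gave 21. Array weights, whose estimate stopped before it converged, gave 2116, and 11 of the 49 pathway genes. Without both CPB 2 and Sham 2 there were 3070, with 719 past the adjusted p and 18 pathway genes. On the arrays left, group and proximal tubule markers cannot be told apart. Leaving out 1 array gave 52 to 701 probe sets and 0 to 4 pathway genes. The causes were not tested. The labels number the replicates and state no pairing. Deviations of same-numbered arrays correlated at -0.39, -0.68 and -0.02, which cannot show whether such arrays were processed together. With the replicate block 76 probe sets met the threshold. Without the scans, the background of a probe cannot be read, which limits dim probe sets such as the dimmer EMB one.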
